A study of Homo sapiens with 3 samples.

Results

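CCN1 and CCN2 are secreted matricellular proteins and long-used target genes of the YAP and TEAD transcription complex. Both had lower signals on both TARBP2 knockdown arrays than on the control array in 293T cells. On average CCN1 was 1.67-fold lower and CCN2 1.77-fold lower at its brighter probe, 1.31-fold at its other probe. YAP1, the coactivator upstream of CCN1 and CCN2, was higher than control with one siRNA and lower with the other. TEAD1 and TEAD4 lay near control at their brightest probes. The set described here held 10 genes of 20046 named ones: the targets CCN1, CCN2, ANKRD1, AMOTL2, LATS2 and AJUBA, the coactivators YAP1 and WWTR1, and the DNA-binding partners TEAD1 and TEAD4. They were picked because CCN1 and CCN2 were lower in the knockdown, so the differences of the 10 genes from control are given as a description, with no test. The array carried 16 probes for them of 47323 in all, with at least 1 probe for each gene.

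The series compared TARBP2 knockdown with control in 293T, a human embryonic kidney line transformed by adenovirus DNA that also carries the SV40 large T antigen. Knockdown cells were transfected either with siTARBP2-1 (siRNA 1) or with siTARBP2-2 (siRNA 2), and control cells with siControl, in each case with a lipid reagent, and total RNA was taken 48 h later. The series design calls the control cells mock-transfected, whereas the sample labels name a control siRNA. It also calls the 293T cells metastatic, a word the labels do not use. Each of the 3 had 1 array, so the 2 siRNAs are the only replicates of the knockdown, the control has none, and no label says whether the arrays came from separate cultures. The p-values therefore draw on the spread between the 2 knockdown arrays, which may be technical and also holds any difference between the siRNAs. For each gene they draw mostly on that spread taken over all genes. So few arrays limit how precise any value can be.

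In the Hippo pathway, the kinases STK3 and STK4 activate LATS1 and LATS2, which phosphorylate YAP1 and WWTR1 (also called TAZ) and hold them in the cytoplasm. When the kinases are inactive, as in spread or sparse cells, YAP1 and WWTR1 enter the nucleus and bind TEAD factors, and genes such as CCN1, CCN2 and ANKRD1 are transcribed. AMOTL2, LATS2 and AJUBA act on the pathway itself, so that part of the target set feeds back on YAP1 activity. CCN1 and CCN2 also respond to serum, to SRF and to TGF-beta signals.

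The promoters are shown first because the TEAD element is what defines this target group. RefSeq promoter windows (assembly GRCh38.p14, 250 bases before to 50 after the transcription start) were matched for 7 of the 10 genes. The unmatched ones were CCN1, TEAD1 and TEAD4. AMOTL2, AJUBA and WWTR1 had 2 windows each, which makes 10 windows. The searched TEAD motif was CATTCC on either strand, which reads GGAATG in the gene's direction when it lies on the other strand. The 4 windows printed are those of CCN2, ANKRD1, AMOTL2 (its second start) and LATS2, and capitals mark the TEAD motif. As measured, CCN2 and ANKRD1 were lower by 1.5-fold with at least 1 siRNA, ANKRD1 from knockdown signals not above background. AMOTL2 was lower with both siRNAs but by less than 1.5-fold, and LATS2 was higher with both, by signals partly below detection.
CCN2, chr6:131951323-131951622 (GRCh38.p14, minus strand): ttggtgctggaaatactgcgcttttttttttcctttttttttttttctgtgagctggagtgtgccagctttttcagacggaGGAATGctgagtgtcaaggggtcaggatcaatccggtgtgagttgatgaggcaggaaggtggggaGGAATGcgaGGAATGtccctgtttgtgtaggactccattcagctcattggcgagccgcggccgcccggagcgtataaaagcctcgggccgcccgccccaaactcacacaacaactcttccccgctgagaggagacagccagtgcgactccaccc
ANKRD1, chr10:90921038-90921337 (GRCh38.p14, minus strand): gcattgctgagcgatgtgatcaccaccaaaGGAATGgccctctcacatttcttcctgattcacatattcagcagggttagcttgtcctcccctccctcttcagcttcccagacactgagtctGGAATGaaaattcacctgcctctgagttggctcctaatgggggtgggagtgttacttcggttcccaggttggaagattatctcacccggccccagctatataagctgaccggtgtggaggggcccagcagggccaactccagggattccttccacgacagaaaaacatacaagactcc
AMOTL2, chr3:134374398-134374697 (GRCh38.p14, minus strand): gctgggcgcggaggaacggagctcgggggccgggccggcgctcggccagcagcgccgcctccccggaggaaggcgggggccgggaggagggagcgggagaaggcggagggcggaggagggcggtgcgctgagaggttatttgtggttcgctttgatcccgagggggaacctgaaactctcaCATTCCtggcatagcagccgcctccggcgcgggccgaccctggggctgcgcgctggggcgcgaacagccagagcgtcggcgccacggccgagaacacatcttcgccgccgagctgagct
LATS2, chr13:21061537-21061836 (GRCh38.p14, minus strand): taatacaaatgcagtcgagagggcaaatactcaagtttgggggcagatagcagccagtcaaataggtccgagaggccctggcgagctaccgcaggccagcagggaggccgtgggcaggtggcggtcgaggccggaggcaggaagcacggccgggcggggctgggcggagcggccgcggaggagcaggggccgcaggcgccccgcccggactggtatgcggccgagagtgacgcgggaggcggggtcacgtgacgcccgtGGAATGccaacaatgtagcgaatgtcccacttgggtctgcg

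The CCN2 window held 3 copies of the motif, all on the opposite strand, with first bases at -169, -104 and -95 from the start, counting the last base before the start as -1. Only 45 of 35116 windows in the whole table (0.128%) held 3 or more. ANKRD1 held 2 copies, at -220 and -128, as did 1.37% of windows when 2 or more are counted. AMOTL2 had 1 copy at -69, AJUBA 1 at -59 of its second start, YAP1 1 at -162, and LATS2 1 just inside the transcript, at base 10. WWTR1 had none in either window. In all, 6 of 7 matched genes had the motif in a window, beside 16.7% of the 27305 genes of the table, and 6 of 10 windows beside 14.0% of all windows. An AP-1 motif, TGANTCA, which reads the same on both strands, was found once, in ANKRD1 at -195 (7.71% of all windows hold one), and the SRF CArG box was found in none of the 10 windows (1.29% of all). None of these motif matches overlapped another. The motif was thus present in genes that were lower with both siRNAs and in genes that were not. A match is a string of letters and no measure of binding.

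**Figure D1:**
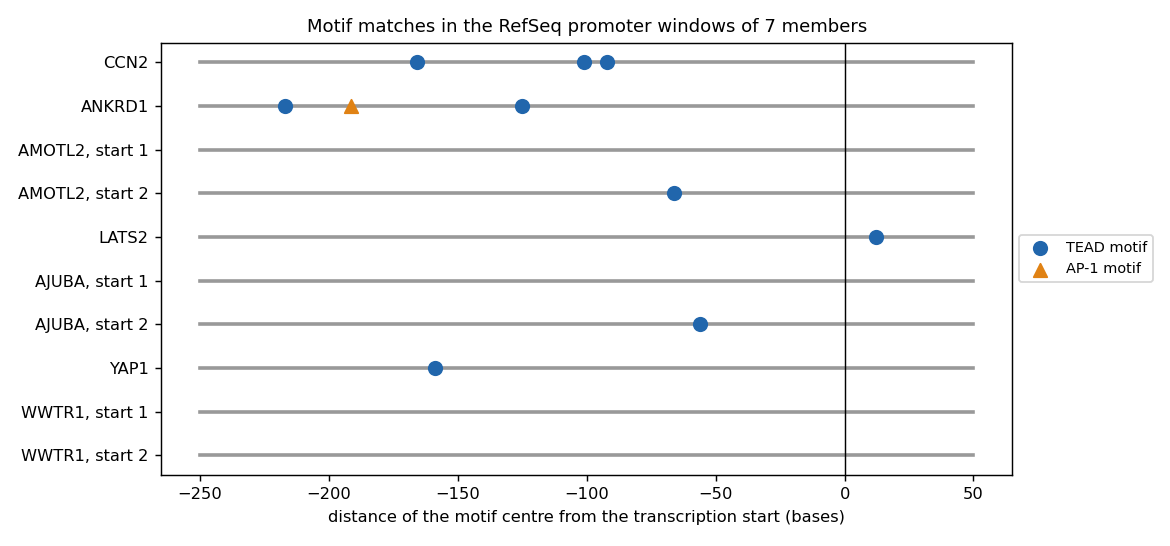
Position of each motif match, as the distance of its centre from the transcription start in bases, in the 10 promoter windows of 7 genes (grey lines run from 250 bases before to 50 after the start). Circles are TEAD motifs and the triangle is an AP-1 motif; CCN2 carries 3 circles and ANKRD1 carries 2, while 4 windows carry none.

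Facts of the arrays bear on every value below. The knockdown arrays had mean raw signals of 680.4 (siRNA 1) and 514.3 (siRNA 2) and the control 528.5, a difference that normalization removed. TARBP2, the targeted double-stranded RNA binding protein, differed from control by -2.12 (siRNA 1) and -2.30 (siRNA 2) in log2 units at the brighter of its probes and by -1.63 and -1.85 at the other. By limma's moderated test the adjusted p of TARBP2 was 0.328, and 0.00423 to 1 over the alternative settings. Of 8 genes that mark HEK293 cells, 6 were detected on all 3 arrays, among them LIN28B and NEFM, and PAX2 was not above background on any. Blood markers were near background, with PTPRC and CD74 detected on no array and LCP1 on all 3, and of 4 fibroblast markers only COL1A1 was detected. The summed raw signal of the HEK293 markers was 8082 and 5309 on the knockdown arrays with siRNA 1 and siRNA 2, and 5683 on the control array, and that of the fibroblast markers 372.2, 320.2 and 307.1 in the same order. Of 7 markers of a mesenchymal breast cancer line, 5 were detected on all 3 arrays and IL6 on none, with sums of 1815, 1159 and 1305. All these sums were taken before normalization, so they also carry the differences in mean raw signal between the arrays. They include probes not above background. The part of these marker levels in the results was not tested. The arrays cannot tell less RNA per cell from fewer cells that hold it.

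Of the 16 probes, 10 had a detection p under 0.01 on all 3 arrays, 2 on 1 array only (ANKRD1 and LATS2), and 4 on none. All signals below are log2 values after background correction and quantile normalization, unless raw intensity is named, and each is compared only with the same probe on another array. For each gene the brightest probe represents it, and all 10 genes had a detected probe on at least 1 array.

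**Figure D2:**
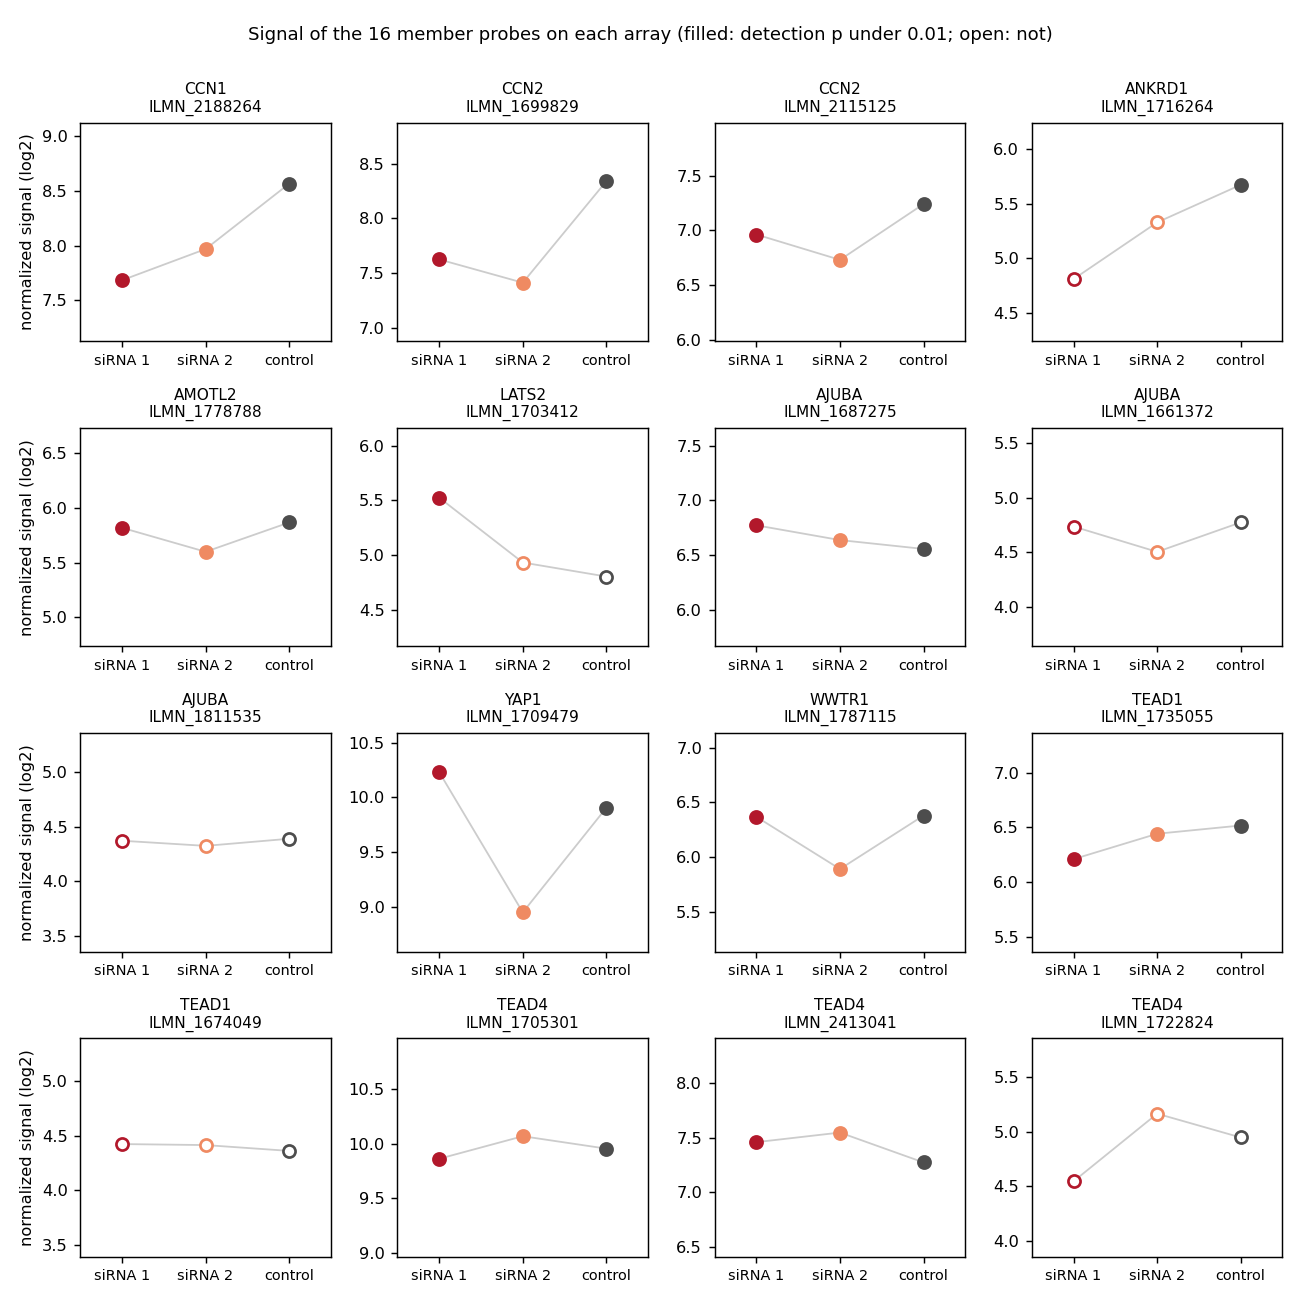
Normalized log2 signal of each of the 16 probes on the siRNA 1, siRNA 2 and control arrays, 1 point per array, each panel spanning 2 log2 units. Filled points had a detection p under 0.01 and open points did not; the CCN1 probe and both CCN2 probes are lowest on the knockdown arrays, and YAP1 is highest with siRNA 1 and lowest with siRNA 2.

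CCN1, formerly CYR61, binds integrins and heparan sulphate and is among the first genes induced by YAP1 and by serum. Its only probe, ILMN_2188264, read 7.69 with siRNA 1 and 7.97 with siRNA 2, against 8.57 on the control array. Both knockdown signals were lower than control, by -0.88 and -0.60, which is 1.84-fold and 1.51-fold lower. The mean difference was -0.74 ± 0.20 (SD of the differences with the 2 siRNAs, n = 2 knockdown arrays against 1 control array). Before normalization the intensities were 303.7 and 254.5 on the knockdown arrays and 382.7 on the control array, so CCN1 was lowest in raw signal with siRNA 2 and lowest after normalization with siRNA 1, the brighter of the 2 knockdown arrays. Among the 11768 genes tested, 0.561% had a lower mean difference.

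CCN2, formerly CTGF, the connective tissue growth factor, shares its modular structure with CCN1 and drives matrix production. Its brighter probe, ILMN_1699829, read 7.62 with siRNA 1 and 7.41 with siRNA 2, against 8.34 on the control array. This is 1.64-fold and 1.90-fold lower, a mean difference of -0.82 ± 0.15 (SD, n = 2 against 1). The other probe, ILMN_2115125, was above background on all 3 arrays too, with 6.96 and 6.73 in the knockdown against 7.24 in the control. Both probes placed both knockdown arrays below control, but the second gave a smaller mean difference, -0.39 ± 0.16. With the mean of both probes in place of the brighter one, CCN2 was at -0.61. In raw intensity the brighter probe read 292.9 and 186.7 in the knockdown and 331.8 in the control, and the dimmer one 199.0 and 134.3 in the knockdown and 178.8 in the control. The raw signal of the dimmer probe was therefore above control with siRNA 1, and came to lie below it only after normalization.

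ANKRD1, a nuclear ankyrin repeat protein that in heart muscle is also a sarcomere protein, is often read together with CCN1 and CCN2 as a YAP1 target. ILMN_1716264 read 4.81 and 5.33 in the knockdown and 5.67 in the control, and only the control signal was above background (detection p 0.100 and 0.0143 with the siRNAs, 0.0013 in the control). With this background correction, ANKRD1 was thus at least 1.28-fold lower in the knockdown. The bound is taken against the lowest signal of any detected probe on each knockdown array, and it does not hold under other handling of background. The differences as measured, -0.86 with siRNA 1 and -0.34 with siRNA 2, depend on the handling of background: without background correction they were -0.44 and -0.18.

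The next 3 targets act back on the pathway and did not share the differences of CCN1 and CCN2. AMOTL2, an angiomotin family protein that retains YAP1 outside the nucleus, read 5.82 and 5.60 in the knockdown and 5.87 in the control. Its mean difference was -0.16 ± 0.16 (SD, n = 2 against 1), about the size of the spread between the siRNAs. LATS2, the kinase that phosphorylates YAP1, was above background with siRNA 1 only, at 5.52, where it was at least 1.18-fold higher than control. With siRNA 2 and in the control it was not above background (4.93 and 4.80), so no fold is given there. AJUBA, a LIM protein that inhibits LATS kinases, read 6.77 and 6.64 in the knockdown and 6.55 in the control at its brightest probe, a mean difference of 0.15 ± 0.10 that turned to -0.016 with the mean of its 3 probes. The other AJUBA probes were not above background on any array.

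YAP1 itself differed most between the siRNAs. ILMN_1709479 read 10.23 with siRNA 1 and 8.95 with siRNA 2, against 9.90 on the control array. The control signal lay between those of the knockdown arrays: YAP1 was 1.25-fold higher with siRNA 1 and 1.94-fold lower with siRNA 2. In raw intensity this was 1560 and 456.0 in the knockdown and 901.4 in the control. The direct difference of siRNA 1 from siRNA 2 was 1.28 log2 units (2.43-fold), and only 0.204% of the genes tested had a larger one in that direction. WWTR1, the paralog of YAP1, read 6.37 with siRNA 1 and 5.89 with siRNA 2, against 6.38 in the control. It was at control level with siRNA 1 (-0.01) and 1.40-fold lower with siRNA 2. Both coactivators were thus lower on the siRNA 2 array than on the other 2 arrays. CCN2 was also lower with siRNA 2 than with siRNA 1 at each of its probes, whereas CCN1 was lower with siRNA 1.

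TEAD1 and TEAD4, which carry the DNA-binding domain of the complex, lay near control at their brightest probes. TEAD1 read 6.21 and 6.44 in the knockdown and 6.52 in the control, a mean difference of -0.19 ± 0.16 (SD, n = 2 against 1). Its second probe was not above background on any array. TEAD4 read 9.86 and 10.07 in the knockdown and 9.95 in the control at its brightest probe, so the control lay between the knockdown arrays. A second TEAD4 probe, ILMN_2413041, read 7.46 and 7.55 in the knockdown and 7.27 in the control, 0.23 higher on average, and the third was not above background on any array. The probes of TEAD4 did not give the same direction with siRNA 1 (-0.09 and 0.19).

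**Figure D3:**
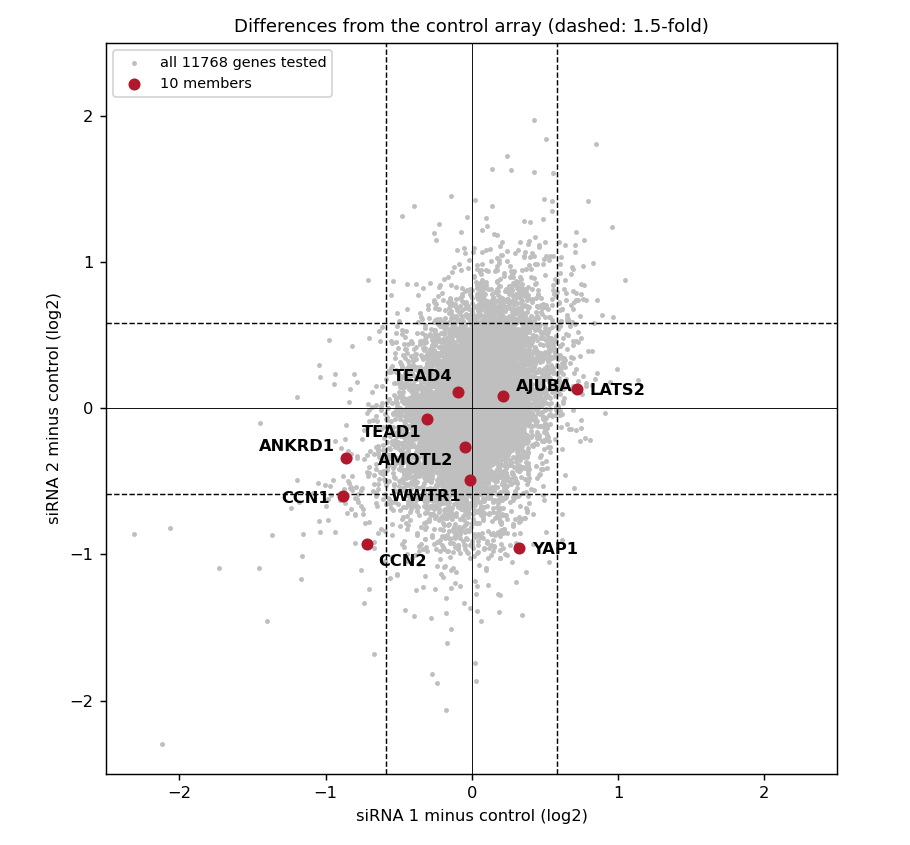
Log2 difference from the control array with siRNA 1 (horizontal) and siRNA 2 (vertical) for all 11768 genes tested (grey) and the 10 members (red, brightest probe, as measured). Dashed lines mark 1.5-fold; CCN1 and CCN2 lie beyond it with both siRNAs, and YAP1 lies at 0.33 and -0.96. Both axes share the control array.

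Over the 10 genes, 6 were lower than control with both siRNAs, 2 were higher with both (AJUBA, and LATS2 by signals that were partly below detection) and 2 went opposite ways (YAP1 and TEAD4). Those lower with both were CCN1, CCN2, ANKRD1, AMOTL2, WWTR1 and TEAD1. ANKRD1 among them was not above background on either knockdown array, and WWTR1 was at control level with siRNA 1 (-0.01). Of all genes tested, 27.2% were lower with both and 31.9% higher with both. By the size rule of 1.5-fold with both siRNAs, CCN1 and CCN2, 2 of 10, were lower and 0 of 10 higher. Of all genes tested, 0.476% were lower and 0.45% higher by that rule. Since the set was picked from this contrast, nothing is read from these shares. CCN1 was just inside the rule with siRNA 2 (-0.60, where the limit is 0.58 log2 units), and the next of the 10 genes was ANKRD1, at -0.34 with siRNA 2 as measured, from a signal not above background. The median difference of the 10 genes was -0.07 with siRNA 1 and -0.31 with siRNA 2, beside 0.00 and 0.03 over all genes. Both comparisons use the same control array, so a shift of that array would move both.

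By the signals as measured, which is how all genes were counted, siRNA 1 alone had 3 of 10 genes lower by 1.5-fold (CCN1, CCN2 and ANKRD1; 1.36% of all genes) and 1 higher (LATS2; 1.26% of all genes). Of these only CCN1 and CCN2 were above background on both arrays compared. ANKRD1 and LATS2 have bounds under 1.5-fold, at least 1.34-fold lower and at least 1.18-fold higher with siRNA 1. With siRNA 2 alone, 3 were lower (CCN1, CCN2 and YAP1; 4.88% of all genes) and 0 higher (5.27% of all genes). Between the siRNAs, 2 of 10 genes differed by 1.5-fold as measured, YAP1 and LATS2, both higher with siRNA 1, beside 10.1% of all genes in either direction (5.12% higher and 5.01% lower with siRNA 1). The share over all genes would be about 1 gene in 10, and with 1 array for each siRNA the count has no test. Only YAP1 was above background on both arrays, and LATS2 has a bound of at least 1.10-fold. CCN1 and CCN2 differed between the siRNAs by -0.29 and 0.21 (siRNA 1 minus siRNA 2). Of all genes tested, 38.0% differed by more than CCN1 in either direction, and 50.7% by more than CCN2.

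Processing mattered for the size rule more than for the direction. CCN1, CCN2, AMOTL2, WWTR1 and TEAD1 were lower with both siRNAs under each setting tried, and ANKRD1 under each that kept it. A change of the detection filter or of the prior cannot move these differences, so only the other settings bear on their direction. WWTR1 came as near control as -0.0075 with siRNA 1, and TEAD1 as near as -0.011 with siRNA 2. The mean difference of CCN1 ran from -0.74 to -0.64 and that of CCN2 from -0.82 to -0.61. YAP1 was higher with siRNA 1 (0.31 to 0.33) and lower with siRNA 2 (-0.96 to -0.89) under each. Under some settings only 1 of 10 genes met the size rule. It was CCN2 without background correction, with the offset of 50, with equal array medians and with the authors' values. CCN1 then fell short with siRNA 2. With all probes of a gene averaged it was CCN1, and CCN2 was at -0.50 with siRNA 1.

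**Figure D4:**
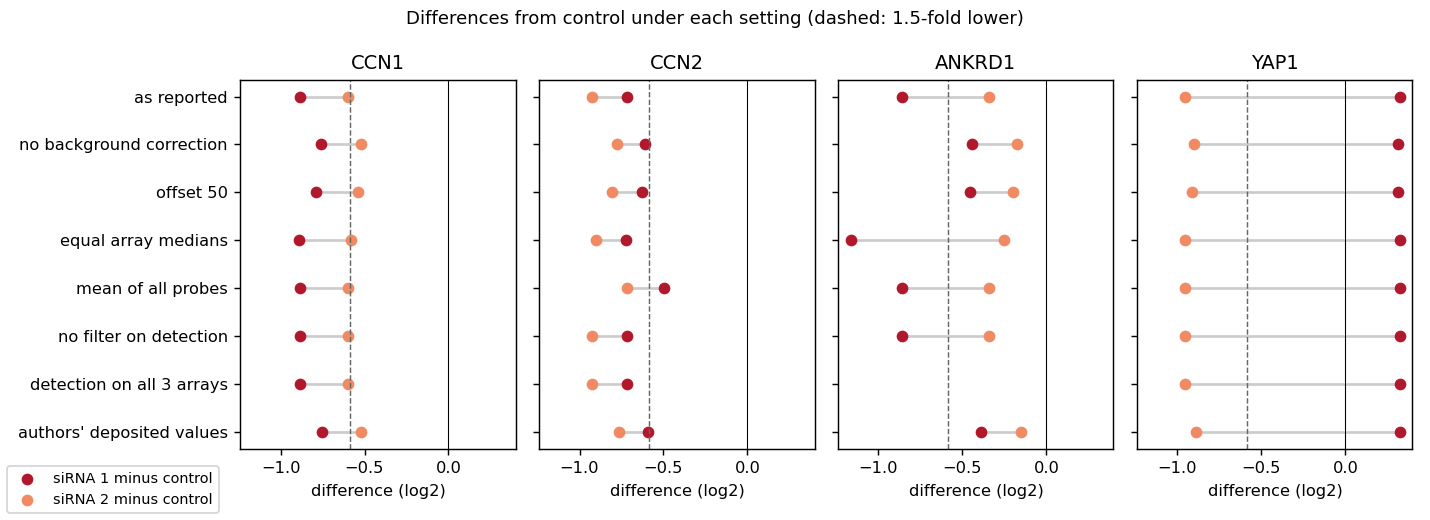
Log2 difference from control with siRNA 1 and siRNA 2 for CCN1, CCN2, ANKRD1 and YAP1, with the dashed line at 1.5-fold lower. Rows are the settings of the processing except the trended and robust prior. Those that change only the detection filter repeat the reported values by construction. CCN1 and CCN2 stay below 0 in all rows shown, ANKRD1 has no value with detection on all 3 arrays, and the YAP1 points lie on either side of 0.

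The authors' deposited table of log fold changes, knockdown over control per transcript accession, gave -0.51 for CCN1 and -0.36 for CCN2. The CCN2 value covers both of its probes, whose deposited intensities differed by -0.48 log2 units on average. For YAP1 the authors' deposited table gave -0.25 and for ANKRD1 -0.13. Its header does not state the log base. Against log2 differences of the deposited intensities it had a slope of 0.990 over 2374 bright accessions (mean intensity over 1000) and 0.654 over all 16977 with 1 probe, so it runs on a log2 scale for bright probes and is compressed for dim ones such as these. In its class of up-regulated accessions, 2.61% of 39747, the authors' deposited table had 0 of the 12 accessions of this set. Its only other class is background, so a lower gene could not be called, and TARBP2 was in the background class too.

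The genes whose 2 differences lay closest to those of CCN1, by Euclidean distance in log2 units over 3 arrays, were HNRNPH1, CDC42SE1, ZSCAN31, RNU1-1 and SEC22B, at 0.0192 to 0.0711. Closest to CCN2 were PRSS23, TSC22D2, UGCG, SNAP91 and PPP4R2, at 0.0494 to 0.146. Of 10797 other genes detected on all 3 arrays, CCN2 was the 64th closest to CCN1, and CCN1 the 44th closest to CCN2. With a single pair of differences per gene, such closeness is a description of these arrays.

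The other genes of the pathway were taken from 6 lists of 72 entries. In limma's moderated test of knockdown against control over all genes, 0 of 11768 rose and 0 fell (0.0% in each direction at a Benjamini-Hochberg adjusted p under 0.05). At an unadjusted p under 0.05 there were 204 genes (1.73%), and limma with a trended and robust prior called 1, TARBP2. None of the measured list genes passed (limma adjusted p = 0.999905 for each), and 1 of them, F3, had an unadjusted p under 0.05. The values that follow are therefore differences that did not pass.

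Among Hippo kinases and upstream regulators, 17 of 19 genes were measured. Signals were below control on both knockdown arrays for 4 of them, above it on both for 4, and on opposite sides for 9. The median difference was 0.03, beside 0.01 over all genes, and it turned to -0.026 with detection required on all 3 arrays. TAOK1, a kinase that activates STK3 and STK4, was at -0.65 with siRNA 1 and -0.05 with siRNA 2. STK3 was at 0.41 and 0.09, and MOB1A, the LATS cofactor, at 0.22 and 0.20. NF2, the scaffold Merlin, was at 0.61 with siRNA 1 and -0.13 with siRNA 2, though its siRNA 2 signal was not above background. Another NF2 probe, above background in the control only, was at least 1.18-fold lower in the knockdown, opposite to the siRNA 1 value of the brightest probe. By siRNA its bounds were at least 1.23-fold (siRNA 1) and at least 1.13-fold (siRNA 2). A further NF2 probe, above background with siRNA 1 only, was at least 1.11-fold higher than control there, the direction of the brightest probe. Like that of ANKRD1, the NF2 bounds depend on the handling of background. LATS1 and LIMD1 were not above background on any array.

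Of the other TEAD and VGLL factors, 4 of 6 were measured, 3 of them higher with both siRNAs. TEAD3 read 6.31 and 6.53 in the knockdown and 5.90 in the control, a mean difference of 0.52 ± 0.26 (moderated SE, n = 2 against 1). VGLL2, a TEAD cofactor, was at 0.58 and 0.46 at its brightest probe, while its other probe was not above background. VGLL4, which competes with YAP1 for TEAD, was at 0.08 with siRNA 1 and 0.63 with siRNA 2. TEAD2 was at -0.04 and -0.22. VGLL1 and VGLL3 were not above background on any array. The median of the 4 was 0.44, with 0.24 for siRNA 1 and 0.55 for siRNA 2, and 0.18 over all 6 without the filter on dim probes.

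The wider YAP and TAZ target signature did not share the lower values of CCN1 and CCN2. Of 17 genes 12 were measured, with 2 below control on both knockdown arrays, 5 above it on both and 5 on opposite sides, and their median differences were 0.0020 (siRNA 1) and 0.29 (siRNA 2), beside 0.00 and 0.03 over all genes. F3, tissue factor, read 7.18 and 7.26 in the knockdown and 6.42 in the control, a mean difference of 0.80 ± 0.25 (moderated SE), but its second probe gave -0.23 and 0.36. PTPN14, a phosphatase that binds YAP1, was at -0.44 and -0.36 at its brightest probe, but its second probe, detected on all 3 arrays, gave 0.65 and 0.54. FJX1, a four-jointed family gene, was at 0.10 with siRNA 1 and 0.66 with siRNA 2. IGFBP3, which binds insulin-like growth factors, was above background with siRNA 2 only, at 5.39.

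**Figure D5:**
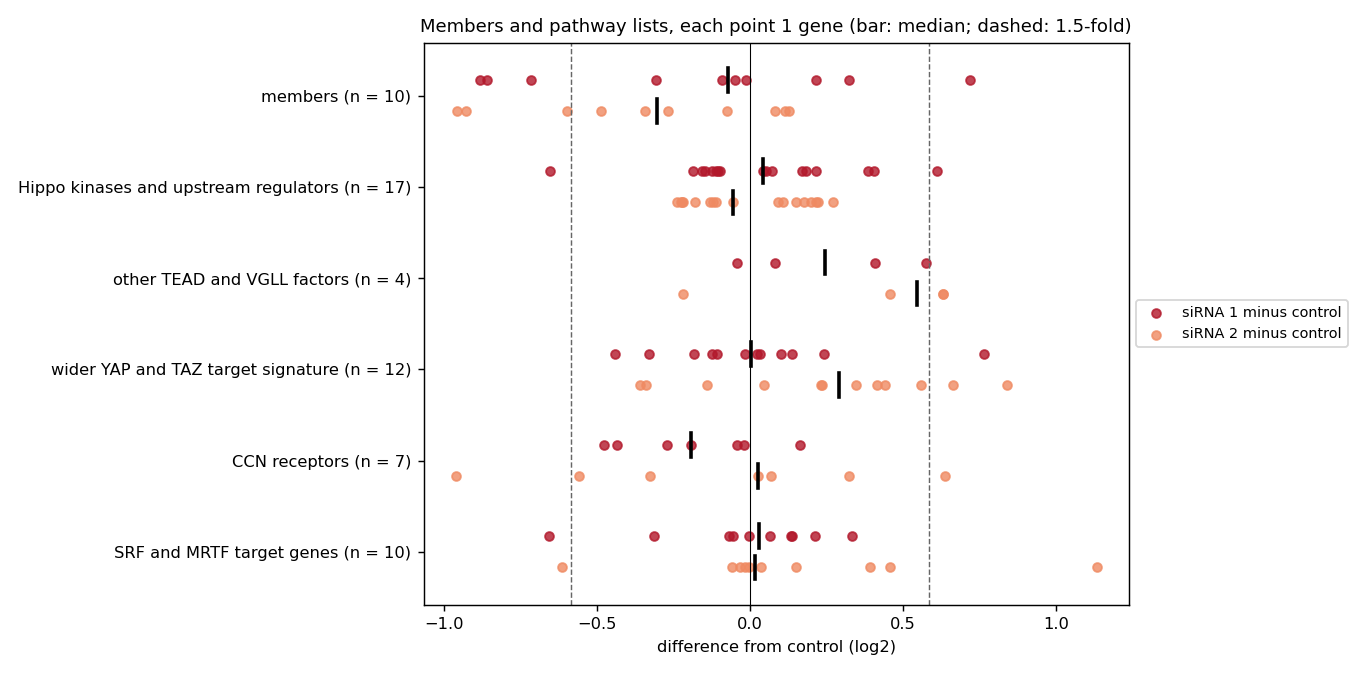
Log2 difference from control of each measured gene with siRNA 1 (dark) and siRNA 2 (light), for the 10 members and 5 pathway lists, with medians as bars and 1.5-fold dashed. The medians of the members are -0.07 and -0.31, and those of the wider target signature 0.00 and 0.29.

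No other gene of the CCN family was measured: CCN3, CCN4, CCN5 and CCN6 were not above background on any array, with detection p from 0.0390 upward. Of 9 receptors and coreceptors of CCN proteins, 7 were measured, and 3 of them were lower with both siRNAs. Integrin subunit ITGAV was at -0.19 with siRNA 1 and -0.96 with siRNA 2. SDC4, a heparan sulphate proteoglycan, read 5.76 and 5.68 in the knockdown and 6.24 in the control, a mean difference of -0.52 ± 0.25 (moderated SE). LRP6, a coreceptor, was above background in the control only and at least 1.12-fold lower in the knockdown. ITGA5 was at -0.04 and 0.64. The median over the 7 receptors was -0.12, with -0.19 for siRNA 1 and 0.03 for siRNA 2.

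Target genes of SRF and its MRTF coactivators, which include CCN1 and CCN2 in many cells, were listed without those 2. Of 17 genes 10 were measured, with 3 below control on both knockdown arrays, 3 above it on both and 4 on opposite sides. Their median was 0.02, and it turned to -0.025 with equal array medians, to -0.045 with probes averaged and to -0.0045 without the filter on dim probes. TAGLN, an actin-binding protein, was at 0.33 with siRNA 1 and 1.13 with siRNA 2, while its other 2 probes were not above background. ACTA2, smooth muscle actin, was at -0.07 and -0.61. FHL2, a LIM domain cofactor, was at 0.13 and 0.39, with -0.05 and 0.21 at another detected probe. Tropomyosin TPM2 was at 0.06 and 0.46.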

How the data were processed

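Average signal intensities and detection p-values per probe and array were taken from the deposited non-normalized table, per the file headers. The authors also deposited processed intensity values (made with lumi, per the submitters' processing notes, which give no version) and a table of log fold changes whose header does not state the base (read here as log2), with another column holding a 0 or 1 class. Signals were background corrected from the detection p-values and quantile normalized on the log2 scale (neqc, offset 16, limma 3.58.1, R 4.3.3). Platform annotation named 30113 of 47323 probes. The brightest probe of a gene was used, and 11768 of 20046 genes with a detection p under 0.01 on any array were kept. Knockdown was compared with control by limma (2 arrays against 1, Benjamini-Hochberg, 0.05). With 1 residual degree of freedom, moderated SEs draw mostly on the variance over all genes. No score of the 10 genes was tested. Named are all members, TARBP2, the 4 most different genes of each list (every gene, in lists of up to 6) and the 5 closest to CCN1 and to CCN2. Other probes of list genes, LATS1, LIMD1 and marker genes were named after their values were seen. Members and lists were chosen with earlier results of these data known.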

Additional observations from a re-analysis of the deposited data

How the results depend on the processing

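With 3 arrays, no slide named in the files and 1 control, the limits are the same for all values: no spread of the control was measured, and dim probes depend on background handling. A slide block was not run for that reason. No paired analysis was possible because there was 1 control array and no label pairs it with a knockdown array. The trended and robust prior called 1 gene, TARBP2 (-2.21, adjusted p = 0.00423), where the reported test called 0. The 56 genes lower by 1.5-fold with both siRNAs became 15 without background correction, 17 with the offset of 50, 36 with detection on all 3 arrays and 15 with the authors' deposited values. The 53 higher ones became 1, 2, 20 and 0 in the same settings and 16 with equal array medians. By construction, the first 2 settings shrink dim differences and the stricter detection tests fewer genes; for the others the cause was not tested. With 1 siRNA left out the lower count ran from 160 to 574 and the higher count from 148 to 620, since 1 siRNA then has to meet the rule. Of the 10 genes, CCN2 alone met the rule without background correction, with the offset of 50, equal array medians or the authors' values. CCN1 alone met it with the mean of probes. In each of these settings 1 gene met the rule in place of 2. CCN2 moved to -0.61 with the mean of probes, and AJUBA turned to -0.016. With a single siRNA, CCN1 ran from -0.88 to -0.60 and CCN2 from -0.93 to -0.72. Over single siRNAs YAP1 ran from -0.96 to 0.33 and TEAD4 from -0.093 to 0.11, so both change sign. List medians moved too. For Hippo regulators the median turned to -0.026 with detection on all 3 arrays and ran from -0.055 to 0.041 over single siRNAs. For TEAD and VGLL factors it was 0.18 with no filter and ran from 0.24 to 0.55 over single siRNAs. For the wider signature it ran from 0.0020 to 0.29 over single siRNAs, and for CCN receptors from -0.19 to 0.025. For SRF targets it turned to -0.025 with equal medians, -0.045 with the mean of probes and -0.0045 with no filter.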
